A study of Mus musculus with 4 samples.

Results

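The vascular endothelial growth factor (VEGF) system was followed through 9 genes of mouse thymic and epigonadal fat nuclei: the ligands Vegfa, Vegfb, Vegfc and Pgf, the receptors Flt1, Kdr and Flt4, and the co-receptors Nrp1 and Nrp2. They were chosen by symbol from the 32285 genes of the deposited feature tables, and all 9 were found once. The study isolated nuclei from the floating layer that remained after collagenase and DNase digestion, which is the layer mature adipocytes rise into, and sequenced their RNA on the 10x Genomics platform. All animals were naïve WT mice of strain C57/BL6 on standard chow. The thymic RNA library came from 6 pooled thymi of males aged 4 months. The epigonadal white fat library also came from males aged 4 months, and the sources used here do not state how many animals it pooled. These 2 RNA libraries are called thymus and epigonadal fat where levels are compared. Another preparation, from 16 pooled thymi of females aged 6 months, was used for open chromatin (ATAC, the cutting of accessible DNA by a transposase). Each group is 1 library, so no difference below has a replicate check. The intervals are 95% intervals of counting error only, and no p-value is given.

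VEGF ligands are secreted dimers that bind tyrosine kinase receptors on endothelial cells. Vegfa signals mainly through Kdr, while Flt1 binds Vegfa tightly and is also the receptor of Vegfb and Pgf. Vegfc signals through Flt4, the receptor best known from lymphatic vessels, and the neuropilins Nrp1 and Nrp2 hold ligands and receptors together and also bind class III semaphorins. In white fat the adipocyte is a known source of Vegfa and the endothelium of the capillaries around it carries the receptors.

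The thymic library held 22600 barcodes and 10054839 unique molecules (UMIs), of which the authors labelled 365 nuclei with 616557 UMIs. The epigonadal library held 5043 barcodes and 6504841 UMIs, with 1564 labelled nuclei and 2276808 UMIs. The labels name adipocyte classes: Ad Ia (35 thymic and 106 epigonadal nuclei), Ad Ib (49 and 152), Ad IIa (231 and 590), Ad IIb (16 and 58) and Ad IIc (34 and 658). The first pair is written Ad I when summed. The 2 libraries shared 147 barcodes, none of which was labelled in both. Of the barcodes labelled in the epigonadal library, 50 also occurred in the thymic library. The reverse held for 1 barcode labelled in the thymic library. Whether RNA passed between the libraries was not tested.

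Several labels carried endothelial markers, although all labels name adipocytes. Of 15 endothelial markers, all 15 had UMIs in Ad IIa of both libraries, with a summed level of 11446 counts per 1000000 UMIs (CPM) in thymus and 8993 CPM in epigonadal fat. In thymic Ad Ia the same list summed to 72.3 CPM, with 13 markers at 0 including Pecam1. The adipocyte hormone gene Adipoq stood at 9.96 CPM in thymic Ad IIa against 449 CPM in epigonadal Ad IIa. The adipocyte list as a whole was not absent from thymic Ad IIa, with 13 of 15 genes detected and a sum of 12943 CPM. It summed to 20608 CPM in thymic Ad Ia, 11512.5 CPM in thymic Ad Ib and 30019 CPM in epigonadal Ad IIa. A nucleus was put in a marker class when at least 3 markers of 1 list were detected and no other list had as many. By that rule 209 of 231 thymic Ad IIa nuclei (90.5%) were of the endothelial class, against 211 of 590 epigonadal ones (35.8%), where a further 282 (47.8%) were of the adipocyte class. The label Ad IIc differed most, since 27 of 34 thymic nuclei (79.4%) but 0 of 658 epigonadal nuclei were of the endothelial class. Thymic and epigonadal nuclei of the same label are therefore compared below with these classes stated. The share of thymocyte RNA in the labels was small. The T-cell marker list made up 8.63% as much of the UMIs in thymic Ad I as in unlabelled thymic barcodes, and 2.65% as much in Ad IIa.

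The 9 genes differ in length and in the base composition ahead of their starts, and the sequences are printed here because fragments over these starts are described further on. Starts and sequences are RefSeq's on GRCm38.p6, and all are written along the gene's own strand. The 250 bases ahead of the start held 59.2% to 76.4% G or C in the 9 members, against a median of 52% over 27025 starts. All 9 held the letters GGGCGG on either strand, the core of a GC box, which 32.9% of all starts held. Vegfa (ENSMUSG00000023951) lies on the minus strand of chr17:46016993-46032377, and the window ahead of it is shown whole, with its pair of GC boxes in capitals.
Vegfa, chr17:46032378-46032627, minus strand: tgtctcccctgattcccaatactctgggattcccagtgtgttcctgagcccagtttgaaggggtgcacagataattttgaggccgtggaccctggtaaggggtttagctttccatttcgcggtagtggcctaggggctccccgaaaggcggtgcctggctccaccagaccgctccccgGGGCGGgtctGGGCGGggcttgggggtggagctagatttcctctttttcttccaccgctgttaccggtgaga

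Flt1 (ENSMUSG00000029648, minus strand of chr5:147561604-147726438) was the member with a cyclic AMP response element, TGACGTCA, in its window. Only 1.62% of starts held these 8 letters on either strand. It was also the member with TATAAA, which 12.97% of starts held. Both stretches are shown with those letters in capitals. The cyclic AMP element begins 81 bases and TATAAA 31 bases before the start that RefSeq gives, which lies 427 bases inside the gene boundary.
Flt1, chr5:147726074-147726103, minus strand: gggggacccctTGACGTCActggaaggagg
Flt1, chr5:147726025-147726054, minus strand: ctggggaaaggtTATAAAtcgcccccgccc

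Kdr (ENSMUSG00000062960, minus strand of chr5:75932827-75979072), Flt4 (ENSMUSG00000020357, plus strand of chr11:49609679-49652739) and Vegfc (ENSMUSG00000031520, plus strand of chr8:54077532-54186454) had GC boxes and neither of the Flt1 letters. They are shown for comparison, with the GC box of either strand in capitals. Flt4 is given over its whole window.
Kdr, chr5:75978604-75978633, minus strand: agatgcgacttgCCGCCCggcacagttccg
Vegfc, chr8:54077282-54077311, plus strand: cgccccgCCGCCCtcctcCCGCCCcccggc
Flt4, chr11:49609429-49609678, plus strand: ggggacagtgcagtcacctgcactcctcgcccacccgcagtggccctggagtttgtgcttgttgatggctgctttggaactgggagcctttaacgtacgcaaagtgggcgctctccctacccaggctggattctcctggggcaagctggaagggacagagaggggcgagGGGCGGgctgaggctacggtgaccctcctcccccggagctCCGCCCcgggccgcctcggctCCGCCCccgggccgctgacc

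The remaining members are Vegfb (ENSMUSG00000024962, minus strand of chr19:6982472-6987651), Pgf (ENSMUSG00000004791, minus strand of chr12:85166637-85177785), Nrp1 (ENSMUSG00000025810, plus strand of chr8:128358591-128505476) and Nrp2 (ENSMUSG00000025969, plus strand of chr1:62703317-62818692). The hypoxia response core was searched in 2 forms on both strands. ACGTG was in the window of 0 of 9 members and of 16.6% of all starts, and GCGTG was in that of 6 members and of 28.2% of all starts. GGAAG, the core that ETS factors read, was in 5 members and in 63.6% of all starts. These matches describe letters only. Flt1, Kdr, Nrp1, Nrp2 and Vegfc overlap annotated non-coding or predicted genes, and whether the counting used strand is not stated, so a small share of their UMIs may belong to those genes.

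Vegfa, the main angiogenic ligand, was highest in Ad I of both libraries. In the thymus Ad Ia held 8 UMIs, a level of 289 CPM (125 to 569.9), and Ad Ib held 9, a level of 366 CPM (167 to 695). In epigonadal fat Ad Ia held 49 UMIs, a level of 341 CPM (252 to 451), and Ad Ib held 12, a level of 99.8 CPM (51.6 to 174). The order within epigonadal Ad I was thus Ad Ia above Ad Ib with intervals apart, while the 2 thymic intervals overlapped. The level in Ad IIa was 4.98 CPM (2 UMIs) in thymus and 5.66 CPM (7 UMIs) in epigonadal fat. Ad IIb held no Vegfa UMI in either library, which allows up to 111 CPM in thymus and 21.3 CPM in the epigonadal sum. Ad IIc held none in the thymus, which allows 55.3 CPM, and 12 UMIs or 23.2 CPM (12.0 to 40.6) in epigonadal fat.

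Summed over Ad I, Vegfa was at 325 CPM (190 to 521, 17 UMIs) in thymus and 231 CPM (177 to 297, 61 UMIs) in epigonadal fat. The log2 ratio of thymic to epigonadal Ad I was 0.52 with an interval of -0.38 to 1.29, so no difference in Vegfa was detectable between the 2 Ad I sums at this depth. Barcodes without a label but of the adipocyte class stood at 254 CPM (209.9 to 306) in thymus and 37.8 CPM (30.4 to 46.5) in epigonadal fat, with median depths of 203 and 651 UMIs. In nuclei with at least 1000 UMIs the ratio turned to -0.92. Ad Ia gave a ratio of -0.17 (-1.53 to 0.85), and Ad Ib gave 1.89 (0.45 to 3.25), a 3.72-fold higher thymic level. Ad IIa fell short of Ad I by a log2 difference of -5.75 (-9.19 to -3.95) in the thymus and -5.26 (-6.73 to -4.22) in epigonadal fat. Vegfa UMIs were spread over nuclei. In thymic Ad I 16 of 84 nuclei (19.0%, exact Clopper-Pearson interval 11.3% to 29.1%) had at least 1, and in epigonadal Ad I 48 of 258 (18.6%, 14.0% to 23.9%). In unlabelled barcodes of the T-cell marker class, which should hold little Vegfa, the share was 1.31% of 1685 thymic and 0 of 98 epigonadal barcodes. Median nuclear-encoded depths were 417 and 701 UMIs in the 2 Ad I sums and 557 and 922 in the T-cell class. Thinning to 500 UMIs left out 58 thymic and 24 epigonadal Ad I nuclei that were shallower. The shares were then 3 of 26 (11.5%, 2.45% to 30.2%) and 28 of 234 (12.0%, 8.10% to 16.8%). The level of Vegfa in Ad I was 4.86-fold (2.72 to 7.69) that of unlabelled barcodes in thymus and 8.04-fold (5.76 to 11.1) in epigonadal fat.

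Vegfb, a ligand of Flt1 linked to tissues rich in mitochondria, had another pattern. It was highest in epigonadal Ad IIc, at 246 CPM (205 to 293) from 127 UMIs. The other epigonadal labels ranged from 24.9 CPM in Ad Ib to 48.5 CPM (37.0 to 62.4) in Ad IIa, with overlapping intervals. The thymic labels together held 5 Vegfb UMIs, a level of 9.35 CPM (3.03 to 21.8), against 200 UMIs and 92.7 CPM (80.3 to 106) over the epigonadal labels. Vegfb was therefore 9.04-fold lower (4.18 to 30.9) over all thymic labels, or by a log2 ratio of -3.18, which was -0.91 when nuclei of the endothelial class alone were compared. Within Ad IIa it stood at 4.98 CPM (2 UMIs) against 48.5 CPM (60 UMIs), 7.85-fold lower (2.58 to 82.2) in the thymus. Within Ad IIc it stood at 18.4 CPM (1 UMI) against 246 CPM, a log2 ratio of -3.16 (-9.05 to -1.23). Unlabelled barcodes stood at 12.6 CPM in thymus and 74.1 CPM in epigonadal fat, but they differ in the classes they hold. The adipocyte class made up 1618 of 22235 thymic and 2503 of 3479 epigonadal unlabelled barcodes. In that class Vegfb was at 33.5 CPM (18.7 to 55.2, 15 UMIs) in thymus and 108 CPM (95.4 to 122, 255 UMIs) in epigonadal fat. In nuclei of the endothelial class of Ad IIa alone, Vegfb was at 5.27 CPM (2 UMIs) in thymus and 16.4 CPM (7.08 to 32.3, 8 UMIs) in epigonadal fat. The epigonadal Ad IIa nuclei of the adipocyte class held 45 of the 60 UMIs, at 83.7 CPM (61.1 to 112). In epigonadal Ad IIc 110 of 658 nuclei (16.7%, 13.9% to 19.8%) had a Vegfb UMI, or 11.02% of the 599 that were deep enough to thin.

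Vegfc, the ligand of Flt4, was carried mainly by Ad IIb. There it stood at 333 CPM (152 to 632, 9 UMIs) in thymus and 249 CPM (173 to 346, 35 UMIs) in epigonadal fat. Ad IIa stood at 7.47 CPM (1.54 to 21.8, 3 UMIs) and 18.6 CPM (11.8 to 27.9, 23 UMIs). Ad I held no Vegfc UMI in either library, which allows 57.4 CPM and 11.4 CPM, and Ad IIc held 1 in each, at 18.4 CPM in thymus and 1.94 CPM in epigonadal fat. Ad IIb exceeded Ad IIa in Vegfc by a log2 difference of 5.33 (3.48 to 8.0) in the thymus and 3.73 (2.94 to 4.57) in epigonadal fat. The labels were drawn by clustering these same nuclei, so differences between labels describe the annotation. The thymic and epigonadal Ad IIb levels did not differ beyond counting error, with a log2 ratio of 0.48 (-0.82 to 1.51). Vegfc came from 6 of 16 thymic Ad IIb nuclei, with at most 3 UMIs in one, and from 16 of 58 epigonadal ones, with at most 7. All 6 thymic and all 16 epigonadal nuclei with Vegfc also had Flt1, and 4 and 9 of them had Kdr. Flt1 was in 16 of 16 thymic and 56 of 58 epigonadal Ad IIb nuclei, so its overlap with Vegfc was nearly fixed by the label. Kdr was in 50% and 63.8% of all Ad IIb nuclei. Per UMI of the endothelial gene Pecam1, Ad IIb held 0.250 (0.106 to 0.529) Vegfc UMIs in thymus and 0.188 (0.127 to 0.271) in epigonadal fat, against 0.00758 and 0.0209 in Ad IIa.

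Pgf, placental growth factor, was scarcely measured. It had 1 UMI over all thymic labels and 7 over the epigonadal labels, all 8 of them in Ad IIa, at 2.49 CPM and 5.66 CPM (2.27 to 11.7). Vegfd, the other ligand of Flt4 and no member of the 9, had 0 UMIs over the thymic labels, which allows 5.61 CPM, and 16 over the epigonadal labels, or 7.41 CPM. Pgf and Vegfd were thus at or near the limit of these sums.

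**Figure D1:**
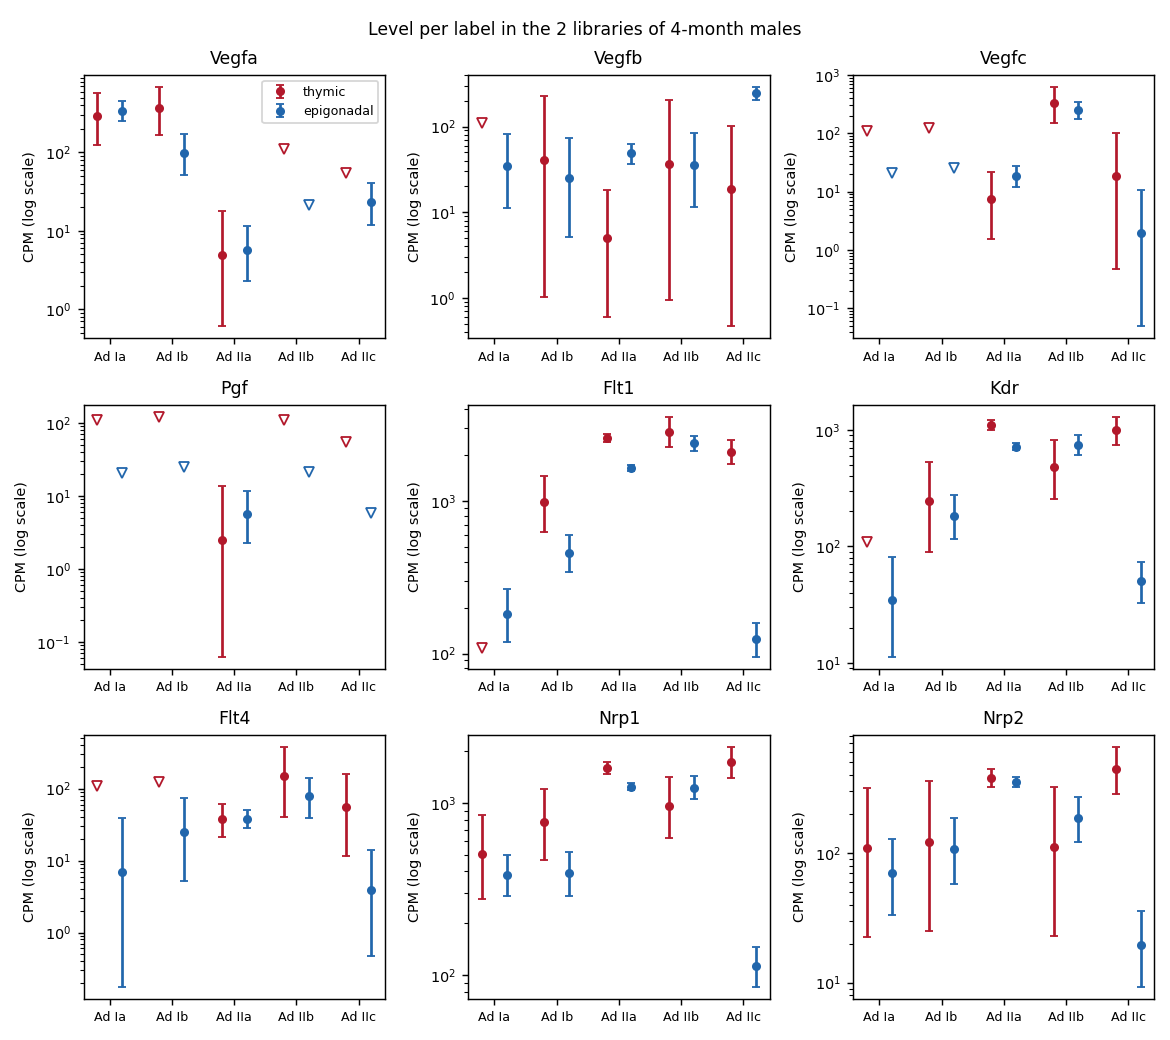
Level of each of the 9 genes (CPM of summed nuclear-encoded UMIs, log axis) by label, in thymus and epigonadal fat, with 95% exact Poisson intervals; open triangles are the limit of 3 UMIs for a sum of 0. Vegfa is highest in Ad I, Vegfc in Ad IIb, Vegfb in epigonadal Ad IIc, and the receptors are high in thymic Ad IIc and low in epigonadal Ad IIc.

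Flt1, the decoy-like receptor of Vegfa and receptor of Vegfb and Pgf, was the member with the most UMIs, 1259 over the thymic and 2503 over the epigonadal labels. In Ad IIa it stood at 2601 CPM (2445 to 2763) in thymus and 1634 CPM (1564 to 1707) in epigonadal fat. In Ad IIb it stood at 2849.7 CPM (2249 to 3562) and 2387 CPM (2139 to 2657). Both Ad II labels were thus high in both fats. In Ad IIc the 2 libraries parted, with 2101 CPM (1733 to 2524, 114 UMIs) in thymus and 124 CPM (95.5 to 158, 64 UMIs) in epigonadal fat. In Ad I it was at 459 CPM (294 to 684) and 307 CPM (244 to 382), with 0 UMIs in thymic Ad Ia, which allows 108 CPM, against 181 CPM (118 to 265) in epigonadal Ad Ia.

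The thymic Ad I level of Flt1 rested on 3 of 84 nuclei, all of the endothelial class and all labelled Ad Ib, which held all 24 UMIs. Without them 81 nuclei with 45943 UMIs held 0 Flt1, 0 Kdr and 0 Flt4 UMIs, which allows 65.3 CPM for each. The epigonadal Ad I nuclei outside the endothelial class held 62 Flt1 UMIs, a level of 246 CPM (189 to 316). Endothelial markers were present in epigonadal Ad I as well: all 15 of the list had UMIs, summing to 1353 CPM, and Pecam1 stood at 201 CPM in 38 of 258 nuclei (14.7%). Flt1 per Pecam1 UMI was 1.53 (1.07 to 2.20) there and 1.84 (1.71 to 1.98) in epigonadal Ad IIa, and the part of such RNA in the Ad I level was not tested. Flt1 was found in 44 of 258 epigonadal Ad I nuclei (17.1%), and 0.712% of thymic and 0 of 98 epigonadal barcodes of the T-cell class had it. Unlabelled epigonadal barcodes as a whole stood at 481 CPM (459 to 504) of Flt1, so the Ad I level lay below that of the unlabelled barcodes, with a log2 difference of -0.64.

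Kdr, the main signalling receptor of Vegfa, followed Flt1 across labels. In Ad IIa it was at 1104 CPM (1003 to 1211, 443 UMIs) in thymus and 719 CPM (672 to 767, 889 UMIs) in epigonadal fat. In Ad IIb it was at 481 CPM (256 to 823) and 746 CPM (610.2 to 903), and in Ad IIc at 995 CPM (748 to 1298) and 50.4 CPM (32.9 to 73.8). In Ad I it was at 115 CPM (42.1 to 249.98, 6 UMIs of 1 nucleus) and 102 CPM (67.4 to 149, 27 UMIs). Thymic Ad IIb was therefore below thymic Ad IIa in Kdr, with a log2 difference of -1.14 (-2.12 to -0.41), while epigonadal Ad IIb was not, with 0.06. The number of Kdr UMIs per Flt1 UMI was lower in Ad IIb than in Ad IIa of both libraries. It was 0.424 (0.379 to 0.475) and 0.440 (0.406 to 0.476) in thymic and epigonadal Ad IIa, with overlapping intervals, and 0.169 (0.0860 to 0.306) and 0.312 (0.249 to 0.390) in Ad IIb.

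Flt4, the receptor of Vegfc, was sparse. Ad IIa held 15 UMIs or 37.4 CPM (20.9 to 61.6) in thymus and 47 UMIs or 38.0 CPM (27.9 to 50.5) in epigonadal fat. Ad IIb held 4 UMIs or 148 CPM (40.3 to 379) and 11 UMIs or 78.2 CPM (39.0 to 139.8). Ad I held 0 thymic UMIs, which allows 57.4 CPM, and 4 epigonadal UMIs or 15.2 CPM. The levels of Ad IIa and Ad IIb overlapped within the thymic and within the epigonadal library. Of the lymphatic genes, Prox1 had 1 thymic and 4 epigonadal UMIs and Lyve1 had 0 thymic and 11 epigonadal UMIs over all labels. The list of 7 lymphatic markers summed to 19.9 CPM on 1 detected gene in thymic Ad IIa. In epigonadal fat it summed to 37.2 CPM on all 7 genes in Ad IIa and to 56.9 CPM on 3 genes in Ad I. In Ad IIb it summed to 74.0 CPM on 2 genes in thymus and 28.4 CPM on 1 gene in epigonadal fat.

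Nrp1, a co-receptor of Vegfa and of semaphorins, had UMIs in every label of both libraries. In Ad IIa it was at 1597 CPM (1475 to 1725, 641 UMIs) in thymus and 1246 CPM (1185 to 1310.2, 1542 UMIs) in epigonadal fat. In Ad IIb it was at 962 CPM (629 to 1409.9) and 1229 CPM (1053 to 1427). In Ad I it was at 632 CPM (435 to 887, 33 UMIs) and 387 CPM (315 to 469, 102 UMIs). Outside its endothelial-class nuclei thymic Ad I still held the co-receptors, with Nrp1 at 566 CPM (370 to 829, 26 UMIs) and Nrp2 at 109 CPM (35.3 to 254, 5 UMIs) in the other 81 nuclei. It was found in 20 of 84 thymic Ad I nuclei (23.8%) and in 28.7% of the epigonadal ones, against 6.11% and 6.12% of T-cell-class barcodes. Ad IIc stood at 1732 CPM (1399.9 to 2119.9) in thymus and 112 CPM (85.3 to 145) in epigonadal fat.

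Nrp2, the co-receptor of Vegfc, was at 379 CPM (321 to 444) in thymic and 353 CPM (321 to 388) in epigonadal Ad IIa, levels that did not differ beyond counting error. It was at 115 CPM (42.1 to 249.98) and 87.2 CPM (55.3 to 131) in Ad I, at 111 CPM (22.9 to 324) and 185 CPM (121 to 271) in Ad IIb, and at 442 CPM (283 to 658) and 19.4 CPM (9.29 to 35.6) in Ad IIc. Ad IIb was below Ad IIa in Nrp2 in both libraries, with log2 differences of -1.55 and -0.91. The interval of the epigonadal difference was -1.57 to -0.36.

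The receptors were seen together in single Ad IIa nuclei. In the thymus 207 of 231 (89.6%) had a Flt1 UMI, 72.7% had Kdr and 80.5% had Nrp1, and 154 nuclei (66.7%) had both Flt1 and Kdr. In epigonadal fat 484 of 590 (82.0%) had Flt1, 58.0% had Kdr and 76.6% had Nrp1, and 305 (51.7%) had both Flt1 and Kdr. Thinned to 500 UMIs, without 4 thymic and 18 epigonadal nuclei that were shallower, the Flt1 share was 67.8% and 49.1% and the Kdr share 43.6% and 25.2%, so the order of the libraries was kept. Both genes were then found in 66 of 227 thymic and 69 of 572 epigonadal nuclei, so the joint share depended strongly on depth. Median depths were 1489 and 1832 UMIs. Flt1 and Kdr each had 0.712% in the thymic T-cell class, so these shares lie far above that of barcodes which should lack the receptors.

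Summed over Ad IIa, the 3 most abundant receptor genes were higher in the thymus, by less than 2-fold. The 2 libraries hold the authors' clusters of this label in different shares, as given further on. The log2 ratio was 0.67 (0.56 to 0.78) for Flt1, 0.62 (0.45 to 0.78) for Kdr and 0.36 (0.22 to 0.49) for Nrp1, or 1.59-fold, 1.54-fold and 1.28-fold. For Nrp2 it was 0.10 (-0.18 to 0.37) and for Flt4 0.01 (-0.97 to 0.84). Of the 7 members with at least 10 UMIs over both sides, 0 were at least 2-fold higher in thymic Ad IIa, as were 5.44% of 9775 genes, and 2 were at least 2-fold lower, as were 16.2% of genes. The 2 were Vegfb and Vegfc, with Vegfc at a log2 ratio of -1.12 whose interval of -3.69 to 0.41 includes no difference. The endothelial list moved with the receptors, its median log2 ratio being 0.36 over 15 genes against -0.02 over all genes. The adipocyte list moved the other way, with a median of -3.80 (-2.55 with sums of 0 held at 3 UMIs) and 11 of 15 genes at least 2-fold lower. Against Pecam1, Flt1 was still higher in the thymus, at 2.64 (2.35 to 2.97) UMIs per Pecam1 UMI against 1.84 (1.71 to 1.98), and Kdr at 1.12 (0.975 to 1.28) against 0.807 (0.738 to 0.883). In endothelial-class nuclei only, Flt1 was at 2609 CPM (2449 to 2777) in thymus and 1792 CPM (1675 to 1915) in epigonadal fat, and Kdr at 1103 CPM and 853 CPM. Nrp1 per Pecam1 UMI was 1.62 (1.43 to 1.84) in thymus and 1.40 (1.30 to 1.51) in epigonadal fat, with overlapping intervals, and Nrp2 per Pecam1 UMI was 0.384 and 0.397.

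With all Ad I nuclei, none of the 5 members with at least 10 UMIs differed by 2-fold or more between the fats. Over all genes 15.2% of 5346 were at least 2-fold higher and 17.0% at least 2-fold lower in thymic Ad I. Scaling by TMM, which centres on the bulk of genes, moved all ratios of this comparison by -0.34, and the genes past 2-fold were then 23.3% higher ones rather than 47.1%. Nrp1 was 1.65-fold higher in thymic Ad I, with a log2 ratio of 0.72 (0.10 to 1.29), and under TMM it was at 0.38 with an interval of -0.24 to 0.95 that includes no difference. Flt1 at 0.60 (-0.14 to 1.25), Kdr at 0.26 (-1.40 to 1.47) and Nrp2 at 0.48 (-1.19 to 1.73) had intervals that include no difference, and Kdr was below 0 under TMM. The direction of Flt1 turned when nuclei of the endothelial class were left out, with 0 thymic UMIs, which allows 65.3 CPM, against 246 CPM in epigonadal fat, and with equal weight per nucleus it was -0.75. In Ad Ia, where Flt1 was 0 against 26 UMIs, it was 1.67-fold lower in the thymus with the 0 held at the limit of 3 UMIs. That value leaves out the counting error of the epigonadal sum, and the intervals overlapped, at 0 to 133 and 118 to 265 CPM. In Ad Ib the ratios were 1.11 (0.34 to 1.81) for Flt1, 1.01 (0.13 to 1.78) for Nrp1 and 0.50 for Kdr, and these sums hold the 3 endothelial-class nuclei. Of 5 members counted in Ad Ib, 3 were at least 2-fold higher in the thymus, as were 21.4% of genes, and 0 at least 2-fold lower, as were 16.0%.

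Ad IIc gave the widest contrast. Flt1 was 16.9-fold higher in the thymus, with a log2 ratio of 4.08 (3.63 to 4.55), and Kdr 19.6-fold higher, with 4.29 (3.60 to 5.04). Nrp1 was 15.4-fold and Nrp2 22.2-fold higher. TMM scaling moved all ratios here by -0.99, to 3.09 for Flt1 and 3.30 for Kdr, and the share of higher genes among those past 2-fold was then 26.5%, where it had been 50.6%. Of the 6 members counted, 4 were at least 2-fold higher, as were 32.7% of 6481 genes, and 2, Vegfa and Vegfb, were at least 2-fold lower, as were 32.0% of genes. Vegfa was 0 UMIs in 34 nuclei against 12 UMIs in 658, and it counts as lower only through the 0.5 UMI added to each sum. The limit of 55.3 CPM for that 0 lies above the epigonadal 23.2 CPM, so no direction can be given for it. The 14 endothelial markers that were counted were all at least 2-fold higher, with a median log2 ratio of 4.36, and 14 of 15 adipocyte markers were lower, with a median of -4.56 (-3.73 with sums of 0 held at 3 UMIs). The label thus held nuclei of different marker classes in the 2 libraries, as given above, and a difference between fats within Ad IIc cannot be told apart from that difference in classes.

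**Figure D2:**
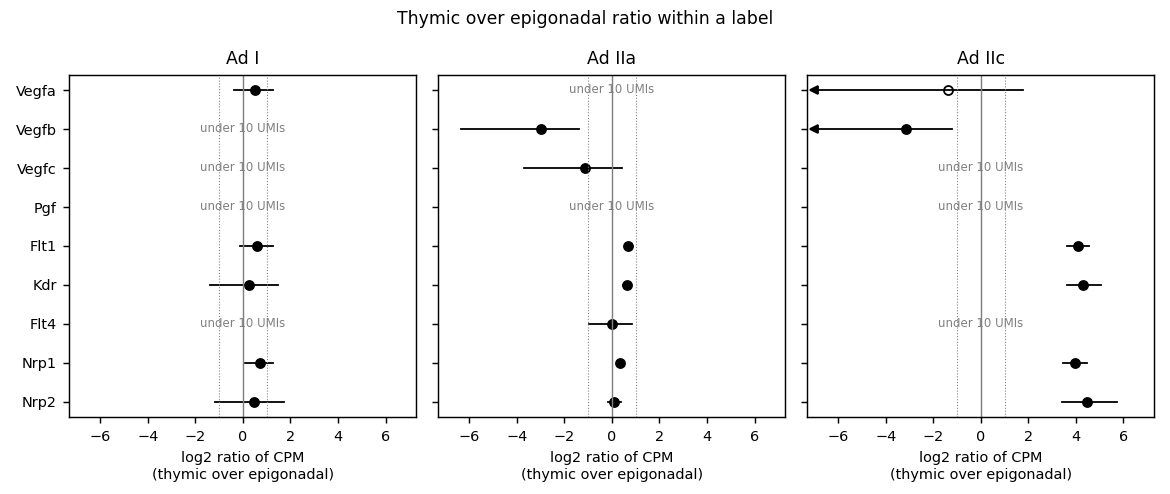
Log2 ratio of the thymic to the epigonadal level for each gene in Ad I, Ad IIa and Ad IIc, with 95% intervals from the exact binomial split of the UMIs; arrows mark intervals beyond the axis, open circles mark a sum of 0, and 0 means equal levels. In Ad IIa Flt1 and Kdr lie at 0.67 and 0.62, while in Ad IIc Flt1, Kdr, Nrp1 and Nrp2 lie near 4 and Vegfb lies at -3.16.

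Within each library Vegfa was higher in Ad I and its receptors were higher in Ad IIa. Ad IIa exceeded Ad I in Flt1 by a log2 difference of 2.47 (1.92 to 3.15) in thymus and 2.40 (2.09 to 2.75) in epigonadal fat, and in Kdr by 3.15 (2.13 to 4.72) and 2.79 (2.26 to 3.42). Without its 3 endothelial-class nuclei thymic Ad I held 0 UMIs of both genes, as given above. For Nrp1 the differences were 1.32 and 1.68, and for Nrp2 1.61 and 1.99. Of 6 members counted in the thymus, 5 were at least 2-fold higher in Ad IIa, beside 28.2% of genes, and 1, Vegfa, was lower, beside 20.2% of genes. Flt4 is among the 5 only through the 0.5 UMI added, since its limit of 57.4 CPM in thymic Ad I lies above the 37.4 CPM of Ad IIa and gives it no direction. Under TMM 74.2% of the thymic genes past 2-fold were higher in Ad IIa, against 58.3%. Of 8 counted in epigonadal fat, 6 were higher, beside 19.8% of genes, and Vegfa was again the 1 that was lower, beside 17.5% of genes. Vegfc is among the 6 through the 0.5 UMI added too, being 1.64-fold higher with its 0 in Ad I held at 3 UMIs. Its intervals overlapped, at 11.8 to 27.9 CPM in Ad IIa and 0 to 14.0 CPM in Ad I. The Flt4 interval (-0.13 to 3.26) includes no difference. Ad IIc over Ad I went opposite ways in the 2 libraries. In the thymus 4 of 5 members counted were at least 2-fold higher in Ad IIc and 1 lower, where 29.6% and 25.9% of genes were. In epigonadal fat 1 of 6 members counted was higher and 5 lower, where 24.3% and 37.5% of genes were. The median log2 difference over all genes was -0.40 there and -0.05 in the thymus. Flt1 differed by 2.17 (1.55 to 2.89) in thymus and -1.31 (-1.80 to -0.82) in epigonadal fat, and Vegfb was 7.67-fold higher in epigonadal Ad IIc than in Ad I, with a log2 difference of 2.94 (2.0 to 4.26).

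A second set of clusters by the authors, called finer clusters here, crossed the labels rather than dividing each of them. Cluster 4 held nuclei of both epigonadal Ad IIa and epigonadal Ad IIb. Cluster 3 held nuclei of Ad IIa in both libraries and of thymic Ad IIc. In epigonadal Ad IIb, cluster 5 (39 nuclei) held all 35 Vegfc UMIs at 368 CPM (256 to 511), and cluster 4 (19 nuclei) held none, which allows 65.9 CPM. Cluster 5 was lower than cluster 4 in Flt1, at 1943 against 3315 CPM, in Kdr, at 483 against 1295 CPM, and in Nrp1, at 903 against 1909.95 CPM. The cluster with Vegfc thus held the receptors of Vegfa too, at lower levels than the cluster without it. In epigonadal Ad IIa, cluster 4 (35 nuclei) held 11 Vegfc UMIs at 150.02 CPM (74.9 to 268), the lowest Kdr level among the label's clusters of at least 10 nuclei at 205 CPM (115 to 337) and an Nrp2 level of 573 CPM. Cluster 1 (498 nuclei) held 12 Vegfc UMIs at 11.5 CPM with 778 CPM of Kdr. In thymic Ad IIb, cluster 5 (13 nuclei) held 8 of the 9 Vegfc UMIs at 357 CPM (154 to 704), with Flt1 at 2946 CPM and Kdr at 402 CPM (184 to 763). The main thymic Ad IIa cluster, cluster 3 with 211 nuclei, stood at 8.38 CPM of Vegfc and 1117 CPM of Kdr. The clusters with the highest Vegfc levels were thus low in Kdr relative to the main Ad IIa cluster in both libraries. Epigonadal Ad IIa had 54 nuclei in cluster 3, with Kdr at 478 CPM (357 to 627). Flt1 in cluster 3 was at 2592 CPM in thymic and 1397 CPM in epigonadal Ad IIa, and Nrp1 at 1587 and 901 CPM. In cluster 1 of Ad IIa, Kdr was at 1159 CPM in 16 thymic nuclei and 778 CPM in the epigonadal ones. The ratios between fats in Ad IIa thus sum over clusters held in different shares. These clusters were drawn from the same counts, which makes this a description.

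**Figure D3:**
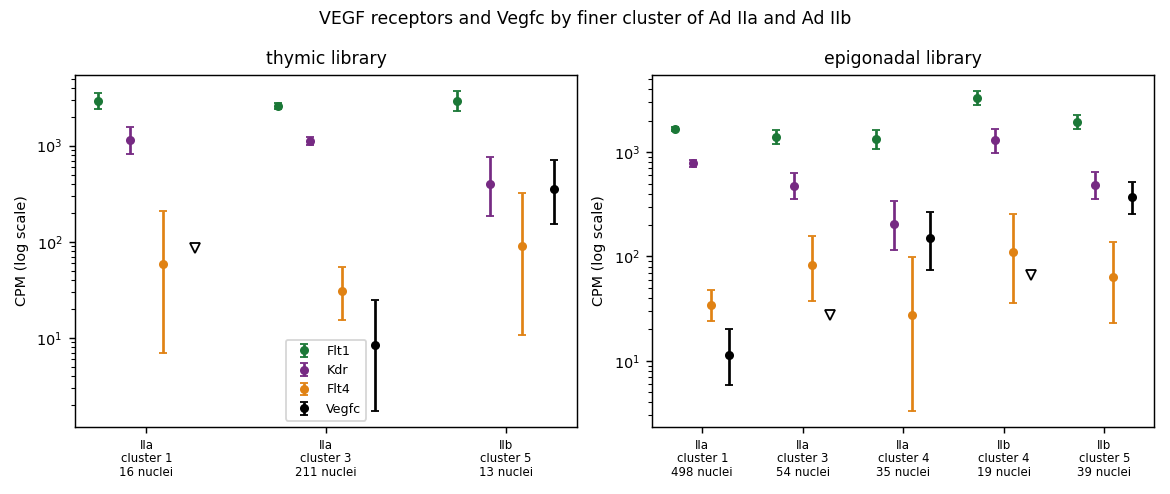
Levels of Flt1, Kdr, Flt4 and Vegfc (CPM, log axis) in the finer clusters of Ad IIa and Ad IIb with at least 10 nuclei, by library, with 95% Poisson intervals; open triangles are the limit for a sum of 0. Vegfc is high in cluster 5 of Ad IIb in both libraries, at 357 and 368 CPM, where Kdr lies at 402 and 483 CPM.

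Other genes of the pathway were read from 6 lists: control by hypoxia (15 genes), receptor signalling (30), targets and tip-cell genes (20), angiopoietins and Tie receptors (7), class III semaphorins and plexins (13) and antagonists (12). Of these, Erg in the target list and Tek, Tie1 and Ptprb in the angiopoietin list are also endothelial markers. In Ad IIa, thymic against epigonadal, 5.44% of all genes were at least 2-fold higher and 16.2% lower, and each list's counts stand beside these shares. The hypoxia list had 9 genes counted, with 0 at least 2-fold higher, 0 lower and a median log2 ratio of -0.11. Arnt, the partner of the hypoxia factors, had the highest ratio at 0.99 (0.53 to 1.43; 174 against 88.1 CPM), and Ndrg1, a hypoxia-induced gene, the lowest at -0.62 (-1.10 to -0.19; 125 against 193 CPM). The signalling list had 29 counted, 0 higher and 4 lower, a share near that of all genes, median 0.14. Hspb1, a heat shock protein phosphorylated after Kdr signalling, was at 0.96 (0.66 to 1.26). These medians lie close to the -0.02 of all genes.

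The target and tip-cell list had 13 genes counted in Ad IIa, 1 higher and 3 lower, median 0.15. Dll4, the Notch ligand of tip and arterial cells, was 84.7 CPM in thymus and 38.0 CPM in epigonadal fat, a log2 ratio of 1.16 (0.48 to 1.82). Plvap, the diaphragm protein of fenestrated vessels, was 2.49 CPM (1 UMI) against 32.3 CPM (40 UMIs), a ratio of -3.13 (-9.04 to -1.14), and Vcam1 was 0 against 14 UMIs. The angiopoietin list had 6 counted, 1 higher and 1 lower, median 0.23, with Angpt2, a destabilising ligand of Tek, at 1.10 (-0.17 to 2.28) and Tie1 at 0.69 (0.34 to 1.03). The semaphorin list had 8 counted, 0 higher and 2 lower, median -0.28. Its extremes were Plxna2, a semaphorin receptor, at 0.90 (0.68 to 1.12) and the ligands Sema3f, at -1.51 (-3.61 to -0.19), and Sema3c, at 0 against 13 UMIs. The antagonist list had 9 counted, 2 higher and 4 lower, median 0.20. The 2 higher were Spred2, at 1.19 (0.94 to 1.44; 580 against 255 CPM), and Spry1, at 1.08 (0.46 to 1.67), both inhibitors of the Ras pathway, and the lowest were the sulfatase genes Sulf2, at 1 against 36 UMIs, and Sulf1, at 0 against 14. The 6 medians thus lay between -0.28 and 0.23.

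In Ad I, where 15.2% of all genes were at least 2-fold higher and 17.0% lower, the same lists gave few genes. The hypoxia list had 6 counted, 1 higher and 2 lower, median 0.60 against 0.08 over all genes, with Egln1, the oxygen-sensing prolyl hydroxylase, at 153 against 26.5 CPM, a log2 ratio of 2.52 (0.87 to 4.22) on 8 and 7 UMIs. Hif1a was 1 against 22 UMIs and Ndrg1 0 against 11. In the angiopoietin list Angpt1, the stabilising ligand of Tek, was 306 CPM in thymus and 493 CPM in epigonadal fat, with an interval that includes no difference (-1.54 to 0.07). Svep1, a matrix protein that binds Tie1, was 440 against 250 CPM, a ratio of 0.84 (0.06 to 1.52). The semaphorin list had 4 counted, 0 higher and 3 lower, median -1.43 (-0.86 with the sum of 0 held at 3 UMIs), among them Sema3c at 0 against 19 UMIs.

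Angpt1 and Svep1 were, like Vegfa, higher in Ad I than in Ad IIa of both libraries. Angpt1 was 12.5 CPM in Ad IIa and 306 CPM in Ad I of the thymic library, a log2 difference of -4.53 (-6.42 to -3.11), and 12.9 against 493 CPM in epigonadal fat, -5.21 (-6.10 to -4.50). Tek, the receptor of Angpt1, went the other way, at 493 CPM (198 UMIs) in thymic Ad IIa against 1 UMI in thymic Ad I, and at 367 against 64.4 CPM in epigonadal fat. Pfkfb3, a glycolytic regulator, was lower in Ad IIa, by -3.27 in thymus and -2.13 in epigonadal fat. Of the 14 and 15 endothelial markers counted, 14 in each library were at least 2-fold higher in Ad IIa, with medians of 3.13 and 2.49, the first being 2.46 with sums of 0 held at 3 UMIs. Ligand and receptor of the angiopoietin pathway thus lay on the same sides of the annotation as Vegfa and its receptors.

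Against Ad IIa, Ad IIb held 2 members at least 2-fold higher and 2 lower in the thymus, where 20.4% and 17.2% of genes were. The higher ones were Vegfc and Flt4 and the lower ones Kdr and Nrp2. In epigonadal fat Vegfc and Flt4, at a log2 difference of 1.09, were at least 2-fold higher and none lower, where 10.3% and 15.5% of genes were. The Flt4 intervals include no difference in both libraries, at -0.06 to 3.64 in thymus and -0.06 to 2.01 in epigonadal fat. Sema3g, a semaphorin that binds the neuropilins, was higher in Ad IIb of both libraries, at 333 against 59.8 CPM in the thymic, 2.53 (1.19 to 3.63), and 369 against 82.4 CPM in epigonadal fat, 2.17 (1.65 to 2.66). Sox17, an arterial transcription factor, was at 333 against 107 CPM in the thymus, 1.70 (0.41 to 2.69). Plvap was at 313 against 32.3 CPM in epigonadal fat, 3.27 (2.62 to 3.93). The endothelial list had median log2 differences of 0.06 and -0.00 in these comparisons. The endothelial class made up 15 of 16 thymic and 41 of 58 epigonadal Ad IIb nuclei. Vegfc was at 199 CPM in those epigonadal nuclei and at 431 CPM (223 to 753, 12 UMIs) in the 11 of the adipocyte class.

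The genes most like each member over the 10 label sums were named from Pearson's r of log2(CPM + 10), as a description over sums that share 2 libraries. Flt1 was nearest to Adgrf5, with r = 0.992, Pecam1 and Cyyr1, all endothelial genes. Kdr was nearest to Sgk1, with 0.990, Zbtb46 and Exoc6. Nrp1 was nearest to Sp1, with 0.975, and Nrp2 to Nrp1, with 0.942. Vegfb was near to Mrpl30, with 0.923, and Mdh2, which both encode mitochondrial proteins. Vegfa, with 99 UMIs, and Flt4, Vegfc and Pgf were under the minimum of 100.

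Open chromatin was read from 317 labelled nuclei of the 6-month female thymic preparation: 146 labelled thyAD I (1646902 fragments), 140 thyAD II (2189613) and 31 Immune (561387). The table of labels is held only to that row, and these nuclei carried 4.35% of all fragments. Fragments over the gene and 2 kb on either side were counted per 1000000 fragments of the label (FPM). Per kilobase, the adipocyte markers had medians of 7.67 in thyAD I and 7.31 in thyAD II, against 0.274 and 0.284 for the median gene, and the endothelial markers had 0.264 and 0.198. The Immune nuclei had 4.91 for the adipocyte markers, against 0.346 for their median gene. All 3 labels thus carried open adipocyte genes, and in thyAD I and thyAD II the median endothelial marker lay under the median gene, although Pecam1 lay above it at 0.681 and 0.821.

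Vegfa and Vegfb had the highest values per kilobase. Vegfa had 271 fragments in thyAD I and 346 in thyAD II, which is 8.49 and 8.15 FPM per kilobase, above 98.7% of genes in both. Vegfb had 7.54 and 6.67, above 98.2% and 97.9% of genes. Nrp1 had 1.22 and 1.30, above 78.4% and 79.0% of genes, Nrp2 1.78 and 1.30, above 84.3% and 79.0%, and Pgf 1.56 and 0.754. The receptors were near or under the median gene of 0.274 and 0.284, with Flt1 at 0.155 and 0.246, Flt4 at 0.284 and 0.301 and Kdr somewhat above it at 0.338 and 0.509. Vegfc was at 0.156 and 0.113. Vegfa and Vegfb were thus more open per kilobase than the receptors and co-receptors in both adipocyte labels, while Pgf and Vegfc were not above the co-receptors in thyAD II. This order depends on window length, which was 19.4 kb for Vegfa, 9.18 kb for Vegfb, 151 kb for Nrp1 and 119 kb for Nrp2. Undivided by length, thyAD I held 212 FPM over Nrp2, 184 over Nrp1, 165 over Vegfa and 69.2 over Vegfb. In thyAD II these were 156, 197, 158 and 61.2 FPM.

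Between the 2 labels, 1 of 9 members was at least 1.5-fold higher in thyAD II, where 9.18% of 23429 genes were, and 1 was at least 1.5-fold lower, where 5.90% of genes were. The higher one was Flt1, with 91 fragments or 41.6 FPM in thyAD II and 43 or 26.1 FPM in thyAD I, which gives a log2 ratio of 0.66 (0.13 to 1.23). The lower one was Pgf, with 25 fragments or 11.4 FPM against 39 or 23.7 FPM, a log2 ratio of -1.04 (-1.84 to -0.29). Kdr was at 0.58 (-0.09 to 1.30). Nrp2 was at -0.44 (-0.66 to -0.22), on 156 and 212 FPM. Vegfa, at -0.06, and Nrp1, at 0.10, did not differ beyond counting error. The Pgf level differed within thyAD I, at 29.4 FPM in joint cluster 1 and 11.5 in cluster 3, with 33 and 6 fragments and a log2 difference of 1.26 (0.08 to 2.90). Of the 9 members, 2 were at least 1.5-fold higher and 3 lower in cluster 1 than in cluster 3, where 11.6% and 11.2% of genes were. The Immune nuclei had less Vegfa than thyAD I, at 96.2 FPM against 165, and less Nrp2, at 85.5 against 212, with log2 ratios of -0.76 (-1.22 to -0.35) and -1.30 (-1.78 to -0.87). Vegfc was also at least 1.5-fold lower, on 5 fragments, which makes 3 of 9 members where 19.0% of genes were, and none was higher where 15.2% were.

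**Figure D4:**
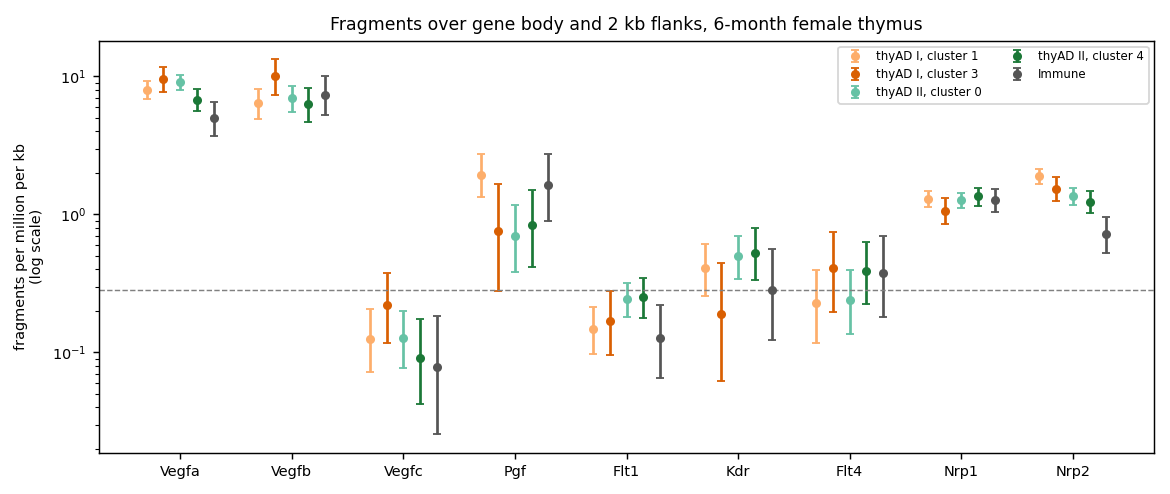
FPM per kilobase over each gene with 2 kb on either side (log axis), in the 6-month female thymic preparation, with 95% Poisson intervals. The groups are joint clusters 1 and 3 of thyAD I, joint clusters 0 and 4 of thyAD II, and the Immune nuclei. Vegfa and Vegfb lie between 4.96 and 10.0 in all of these groups, and Flt1, Flt4 and Vegfc lie at or under 0.407.

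The windows whose upstream bases are printed above were read within 1 kb of the start. Vegfa had 83 fragments (50.4 FPM) in thyAD I and 105 (48.0 FPM) in thyAD II, above 95.3% and 95.8% of starts, where the median start had 1.82 and 1.83 FPM. Vegfb had 24.9 and 25.6 FPM and Nrp1 30.4 and 32.0 FPM, so at the start Nrp1 stood above Vegfb in both labels, the reverse of their order per kilobase. Flt1, with its cyclic AMP element, had 5 and 8 fragments (3.04 and 3.65 FPM). Kdr had 7 and 18 (4.25 and 8.22), and Flt4, with its 3 GC boxes, had 3 and 4 (1.82 and 1.83). Members that all hold GGGCGG thus ranged from the level of the median start to the most open starts. Across 5 kb on either side, Vegfa ends peaked in the 500 bases ahead of the start, at 21.6 ends per 1000000 and 500 bases in thyAD I and 18.5 in thyAD II, and had further peaks inside the gene, at 17.9 in thyAD I between 1000 and 1500 bases and at 18.2 between 4500 and 5000. Nrp1 peaked 1500 to 2000 bases ahead of its RefSeq start, at 15.5 in both labels. The RefSeq starts of Kdr, Nrp1 and Pgf lie 617, 482 and 472 bases inside the gene boundary. The Vegfb window reaches the neighbouring gene Dnajc4, and the peak of 20.6 ends in thyAD I between 4500 and 5000 bases ahead of its start lies on that side.

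**Figure D5:**
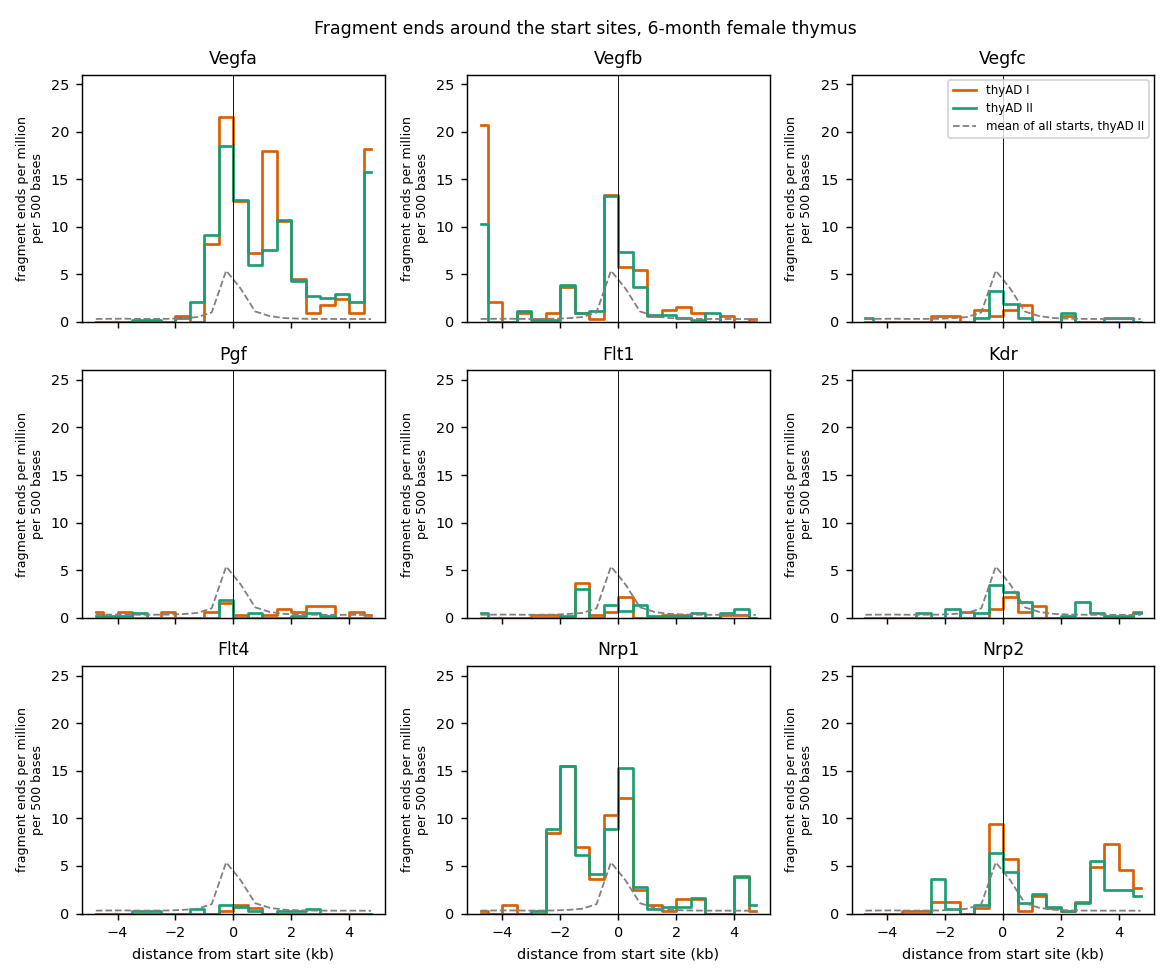
Fragment ends per 1000000 in bins of 500 bases by distance from the start (negative is upstream, to 5 kb) for each gene in thyAD I and thyAD II; the dashed line is the mean over 27025 starts in thyAD II. Vegfa peaks at 21.6 and 18.5 ahead of its start, and Flt1, Flt4 and Vegfc stay at or under 3.64 across the window.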

How the data were processed

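Counts of unique molecules per gene and barcode were deposited as the authors' 10x matrices for the thymic and epigonadal 4-month male libraries. Their headers name Cell Ranger 7.2.0, per the file headers; the build, and whether intronic reads were counted, are not given for them in the sources used here. The deposited fragment counts come from Cell Ranger ARC 2.0.2 on GRCm38, per the file headers. The submitters' processing notes also name Seurat 5.1.0 and mm10. Labels and finer clusters are the authors' own, in deposited tables that also hold the percent of mitochondrial UMIs (at most 19.97% in labelled thymic nuclei) and a ratio of fragments at start sites, which the authors computed. The deposited table of labels for the 6-month preparation stops after 317 complete rows, and its RNA matrix was not analysed here.

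UMIs were summed per library and label, without mitochondrially encoded genes, and given as CPM with exact Poisson intervals. Ratios had 0.5 UMI added to each sum and an interval taken from the exact binomial division of both counts. A gene was counted with at least 10 UMIs over both sides and called at 2-fold, or with at least 20 fragments and called at 1.5-fold. Calls used these ratios, and a sum of 0 was held at 3 UMIs only for limits and for the ratios and medians so marked. A label has 1 library on either side, so no test was run; the ratio code was checked on simulated data. The 9 members and the lists of 98 pathway genes and 12 marker lists were chosen with earlier results of these data known. The text names all 9 members, the 2 highest and 2 lowest genes of each pathway list as far as space allows, and the 3 genes most like each member with at least 100 UMIs. Some genes that these rules pick are not reported here. Comparisons between labels used the nuclei the authors labelled, all called singlets in their table. Unlabelled barcodes served as background and were not filtered, and no doublet step was run. Alternatives were another scaling (TMM of edgeR 4.0.16 and the size factors of DESeq2 1.42.0), other minimum counts, deeper nuclei, thinning to 500 UMIs, equal weight per nucleus and, chosen after the data were seen, marker classes of nuclei. Python 3.11.15, numpy 2.4.6, scipy 1.17.1, pandas 2.3.3, matplotlib 3.10.9 and R 4.3.3 were used.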

Additional observations from a re-analysis of the deposited data

Results flagged for a closer look

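Within each library, Ad IIc was compared with Ad I, and 4 members went one way in the thymic and the opposite way in the epigonadal library. The log2 difference was 2.17 (thymic) and -1.31 (epigonadal) for Flt1, and 3.01 and -1.02 for Kdr. It was 1.44 and -1.78 for Nrp1, and 1.86 and -2.13 for Nrp2. In the thymic library 29.6% of 2285 genes were at least 2-fold higher in Ad IIc than in Ad I, as were 4 of 5 members. In the epigonadal library 37.5% of 8154 genes were at least 2-fold lower, beside the receptors and co-receptors named here. The median log2 difference over all genes was -0.40 in the epigonadal and -0.05 in the thymic library. The member values were not centred on these medians, and no other scaling was run for this comparison. The difference between the libraries was not tested, since each is 1 library. The nuclei of the label differed in the markers they carried: 27 of 34 thymic nuclei (79.4%) and 0 of 658 epigonadal nuclei were of the endothelial class. The summed endothelial list was 10099 CPM in thymic and 455 CPM in epigonadal Ad IIc, while the adipocyte list was 20087 and 96704 CPM. The part of this in the receptor differences was not tested.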

How the results depend on the processing

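Of 399 alternative values of the members, 335 stayed within the counting interval of the reported value, and 63 left it in size. Among ratios of at least 2-fold with an interval apart from 0, the 1 that changed sign was Flt1 over all labels without nuclei of the endothelial class, at -0.063. Ratios under 2-fold or with an interval that includes 0 changed sign too, among them Flt1 in Ad I, at -0.75 with equal weight per nucleus and -4.51 without nuclei of the endothelial class, Nrp2 over all labels, at -0.18 without that class, Vegfa in Ad I, at -0.92 in nuclei with at least 1000 UMIs, and Kdr in Ad I, at -0.08 under TMM. Values over a sum of 0 are set by the 0.5 UMI added and measure no size: they are the -4.51 of Flt1, and below the -5.27 of Vegfb, the 5.0 of Kdr, and the 7.90 and 6.67 of Flt1 and Kdr. In Ad IIa, endothelial-class nuclei alone gave 0.54 for Flt1 and 0.37 for Kdr, and Kdr was 0.80 with equal weight per nucleus and 0.97 after thinning. In Ad IIc, TMM gave 3.09 for Flt1, 3.30 for Kdr and 2.96 for Nrp1, median-of-ratios scaling gave 3.15, 3.36 and 3.01, and nuclei with at least 1000 UMIs gave 3.52 for Flt1 and 3.23 for Kdr. Vegfb over all labels was -5.27 after thinning and -0.91 in endothelial-class nuclei. For Ad IIa over Ad I in the thymic library, Flt1 and Kdr were 1.25 and 1.71 in nuclei with at least 1000 UMIs, 4.15 and 5.28 with equal weight, 1.54 and 5.0 after thinning, and 7.90 and 6.67 without the endothelial-class nuclei of Ad I. The epigonadal Flt1 value was 2.03 in nuclei with at least 1000 UMIs. Apart from the selections of nuclei by class, the cause was not tested.

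Counts of genes past 2-fold moved with the minimum, being given here with none and with 50 UMIs. For thymic over epigonadal, Ad I had 1721 genes, then 4907 and 214, and 1137 after thinning. Ad IIa had 2120, then 4564 and 690, with 1357 after thinning, 1225 with 5 UMIs added and 1358 in endothelial-class nuclei. Ad IIc had 4191, then 7931 and 1111, with 2450 in nuclei with at least 1000 UMIs and 2490 after thinning. All labels had 3198, then 5779 and 1604, with 1375 in endothelial-class nuclei. Ad IIa over Ad I had 2954 thymic genes, then 7397 and 844, and 1463 after thinning, and 3751 epigonadal genes, then 8674 and 1691, and 2446 after thinning. For fragments, 3532 genes were past 1.5-fold, 17375 with no minimum, 590 with 100 fragments, 5712 with cut sites and 1573 around starts.

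Subtraction of the unlabelled profile was run on the thymic side only. No paired analysis was possible because each group is 1 library. Depth limits Pgf, Flt4 and thymic Vegfb, Vegfc and Kdr in Ad I, which rest on few UMIs.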

Other observations

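Barcodes without a label showed further member levels by marker class, beside the adipocyte-class and T-cell-class values already given above. Nrp1 was at 537 CPM (307 to 873, 16 UMIs) in the 45 thymic barcodes of the macrophage class and at 587 CPM (491 to 697, 131 UMIs) in the 169 epigonadal ones. In those epigonadal barcodes Nrp2 was at 255 CPM (193 to 331), while Flt1 had 3 UMIs. The 268 thymic barcodes of the endothelial class had Flt1 at 2236 CPM and Kdr at 987 CPM, and the 56 epigonadal ones had 1813 and 842 CPM. Nrp1 and Nrp2 stood the other way in these barcodes, at 1116 CPM (996 to 1247) and 229 CPM in the thymic and 1445 CPM (1309 to 1591) and 333 CPM in the epigonadal ones. The intervals of Kdr overlapped, at 874 to 1111 and 739 to 955 CPM. Those of Nrp2 overlapped too, at 176 to 292 and 270 to 407 CPM. These thymic and epigonadal endothelial-class barcodes differed in median depth, at 691.5 and 4436 nuclear-encoded UMIs. They also differed in Adipoq, found in 6 of 268 thymic (2.24%) and 25 of 56 epigonadal barcodes (44.6%). Vegfc was at 64.4 CPM (18 UMIs) in the thymic endothelial class and at 59.2 CPM (32.4 to 99.3) in the 167 epigonadal barcodes of the fibroblast class. As given above, Vegfa was at 254 CPM in the 1618 thymic barcodes of the adipocyte class and at 37.8 CPM in the 2503 epigonadal ones. Vegfb was at 108 CPM (95.4 to 122) in those epigonadal barcodes. A class cut from marker counts is a range of barcodes, not a cell type.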
